A study of Rattus norvegicus with 6 samples.

Results

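Matrix metalloproteinases (MMPs) are zinc-dependent enzymes that cut collagens and other proteins of the extracellular matrix, and tissue inhibitors of metalloproteinases (TIMPs) are small secreted proteins that block them. The genes followed here were 6 enzymes (Mmp2, Mmp3, Mmp9, Mmp10, Mmp13 and Mmp14) and 4 inhibitors (Timp1, Timp2, Timp3 and Timp4), found by gene name among the 25689 genes of the count table. The family was chosen on the lower level of Mmp3 after ablation in these same samples, so the difference of Mmp3 between the groups is given as a description with no test. For the other members the values come from a fit over all genes, and no p-value was adjusted over the family alone. The material was neurons from dorsal root ganglia (DRGs) at the level L1-L2, taken from Spontaneously Hypertensive Rats (SHRs), a strain that develops high blood pressure without treatment. In 3 samples the rats had undergone surgical removal of the perirenal fat on both sides (PRATA) 4 weeks earlier, and in the other 3 a sham operation. All rats carried the labels wild type and 6 to 8 weeks of age, although the study's methods give an older age at purchase, and no normotensive strain entered the comparison. Ganglia were dissociated by collagenase and then trypsin, and a plating step of 5 h served to deplete glia before RNA was taken. The labels do not say whether each sample came from 1 rat, so p-values measure the spread between these samples.

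MMPs are made as inactive proenzymes and gain activity when their propeptide is removed, often by another protease. Mmp3 and Mmp10 encode the stromelysins, which cut proteoglycans, laminin and fibronectin and can activate other proenzymes. Mmp2 and Mmp9 encode the gelatinases, Mmp13 a collagenase, and Mmp14 a membrane-anchored enzyme that activates the Mmp2 product in a complex with the Timp2 product. In sensory ganglia, gelatinases are known for their part in pain after nerve injury.

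Mmp13, Mmp3 and Mmp10 lie in one cluster of metalloproteinase genes on rat chromosome 8 in RefSeq (GRCr8). Mmp12 and Mmp1b lie between Mmp13 and Mmp3, and Mmp1 lies between Mmp3 and Mmp10. Transcription of this group is known to respond to AP-1, a dimer of Fos and Jun proteins. Windows of 150 bases directly before the start site were therefore read for the AP-1 core TGANTCA, which reads the same on both strands, and for TATAAA on both strands. The 3 clustered members are shown with Timp3, the inhibitor with the largest difference between the groups. Capitals mark matches to either motif, and the matches do not overlap.
Mmp13, chr8:12782679-12782828, plus strand: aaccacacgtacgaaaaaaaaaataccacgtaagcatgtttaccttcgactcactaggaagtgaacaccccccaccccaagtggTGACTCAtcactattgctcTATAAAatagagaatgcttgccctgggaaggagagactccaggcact
Mmp3, chr8:12925131-12925280, plus strand: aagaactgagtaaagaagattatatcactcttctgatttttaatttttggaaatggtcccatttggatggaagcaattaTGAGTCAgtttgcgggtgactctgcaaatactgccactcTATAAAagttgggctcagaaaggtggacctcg
Mmp10, chr8:12974557-12974706, plus strand: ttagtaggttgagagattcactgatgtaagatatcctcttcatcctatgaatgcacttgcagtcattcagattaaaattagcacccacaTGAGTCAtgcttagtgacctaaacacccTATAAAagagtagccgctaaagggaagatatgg
Timp3, chr7:19459559-19459708, minus strand: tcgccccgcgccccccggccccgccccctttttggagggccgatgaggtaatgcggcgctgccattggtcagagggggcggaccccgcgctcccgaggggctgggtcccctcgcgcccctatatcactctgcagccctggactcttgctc

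Each of the 3 enzyme windows held TGANTCA once and TATAAA once. The AP-1 core began 66 bases before the start site in Mmp13, 71 in Mmp3 and 61 in Mmp10, and was spelled TGACTCA in Mmp13 and TGAGTCA in the other two. Over all 33469 windows of this length, 3.69% held TGANTCA, 8.00% held TATAAA and 0.385% held both. Windows were read for 7 of the 10 members. None was read for Mmp2, Mmp9 and Mmp14, so the enzymes outside the cluster were not compared with the inhibitors. The windows of Timp1, Timp2, Timp3 and Timp4 held neither motif. The share of G and C was 39.3% in Mmp3 and in Mmp10 and 46.0% in Mmp13, beside 72.0% in Timp3 and a median of 52.7% over all windows. These matches describe letters only and were not tested as binding sites.

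The shallowest sample, sham replicate 2, held 5892967 counts in total and the deepest, sham replicate 1, 15226952, so that 3 counts correspond to between 0.207 and 0.468 CPM, the counts scaled to a common library size. All 17 sensory neuron markers were detected, and their summed level was 14250 to 22025 CPM after PRATA and 10085 to 15648 CPM after sham. PRATA replicate 3 and sham replicate 1 stood apart in the 7SL RNA, a small cytoplasmic RNA, where Rn7sl1 took 92.0% and 94.1% of the counts on 7SL copies against 45.3% to 47.4% in the other 4 samples. Differences are therefore also given within those 4 samples, 2 per group, while the remaining pair could not be tested alone. The CPM values are normalized by TMM but not divided by gene length, so they compare samples for a gene and do not rank the genes. A filter on low counts left 14919 genes for testing, 9 of the 10 members among them.

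Among these 9 members, 8 were lower and 1 was higher after PRATA in edgeR's fit, with a median log2 fold change of -1.19 beside 0.02 over all genes tested. All 5 tested enzymes were lower (median -1.34), as were 3 of the 4 inhibitors (median -0.44). At an unadjusted p under 0.05 with a log2 fold change under -1, 5 members were counted: Mmp9, Mmp13, Mmp14, Timp3 and Mmp3. The place of Mmp3 in this count is no test, because its value led to the choice. The same thresholds took 3.23% of all genes tested, 482 in number. In the upward direction 0 members were counted, beside 1.17% of all genes. The groups did not overlap for 4 of the 9, all lower after PRATA, beside 11.2% of all genes in that direction and 11.6% in the other. Since Mmp3 led to the choice of the family and Mmp3 and Mmp13 passed the low-count filter largely through their sham samples, these counts describe the family and support nothing further. After adjustment over all genes, 0% of them passed 0.05 in edgeR, while the unadjusted p of 2734 genes was under 0.05. At the same adjusted p, DESeq2 called 744 genes and limma voom with quality weights 1173, with Mmp14 and Timp3 in both. The count of 5 lower members became 3 without PRATA replicate 1, PRATA replicate 2 or sham replicate 3, and 6 without sham replicate 2. Beside Mmp3, whose value led to the choice, Timp3 was counted under each of these settings.

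**Figure D1:**
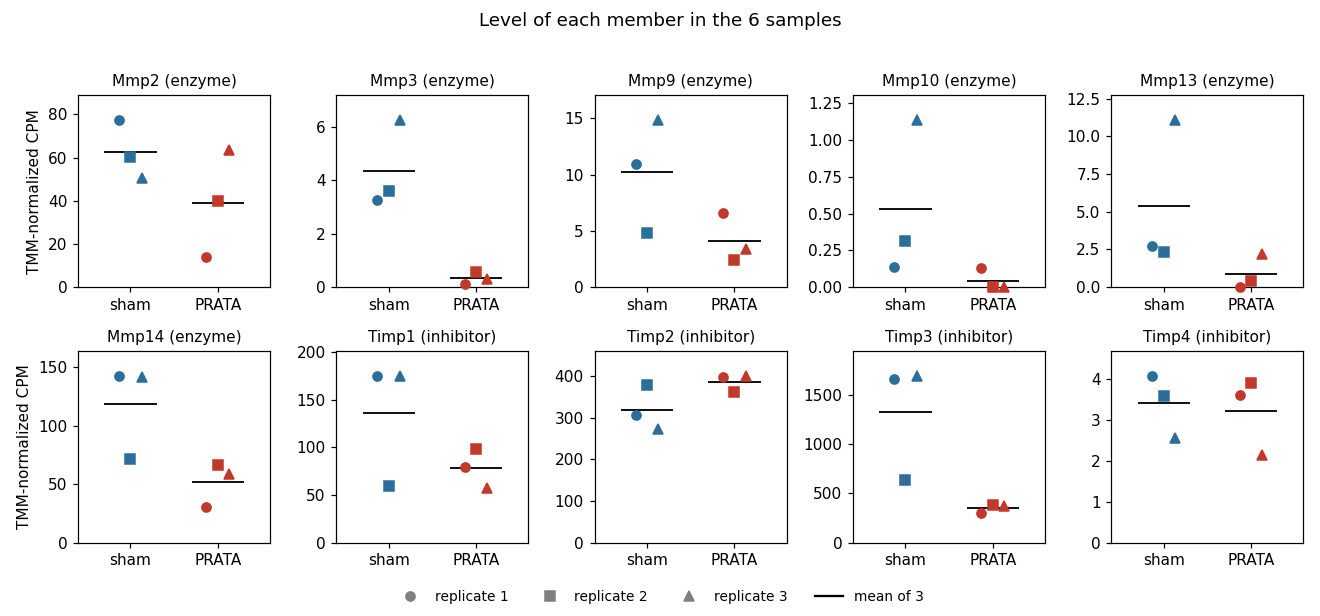
TMM-normalized CPM of each of the 10 members (vertical axes start at 0 and differ between panels) in the 3 sham samples (blue) and the 3 PRATA samples (red), with symbols for replicates and a line at the mean of 3. The sham samples lie above the PRATA samples without overlap for Mmp3, Mmp13, Mmp14 and Timp3, and for Mmp10 only by 1 count against 2. Sham replicate 2 lies nearest to PRATA for Mmp14 and Timp3.

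Mmp3 (ENSRNOG00000032626), which encodes stromelysin 1, was read 1, 7 and 4 times in PRATA replicates 1, 2 and 3 and 47, 23 and 66 times in the sham replicates. These counts correspond to 0.129, 0.558 and 0.316 CPM after PRATA and to 3.25, 3.59 and 6.23 CPM after sham. Every sham sample was thus well above every PRATA sample, and 2 of the PRATA samples lay near or below the level of 3 counts. In edgeR's fit the log2 fold change was -3.59 (standard error 0.57), the value for which the family was chosen, and only 3 of the 14919 genes had a lower one. Summed over the groups, 12 counts against 136 gave a ratio of 0.0843, which describes the difference that led to the choice and leaves out the spread between samples. Within the 4 samples alike in 7SL RNA the log2 fold change was -3.69.

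Mmp10 (ENSRNOG00000032832), the gene of stromelysin 2, was at the limit of detection. Its counts were 1, 0 and 0 after PRATA and 2, 2 and 12 after sham, so that sham replicate 3 alone rose clearly above 3 counts. The summed counts of 1 and 16 gave a PRATA to sham ratio of 0.0597 (95% exact interval for counting error 0.00142 to 0.384). Mmp10 did not pass the low-count filter and was not tested.

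Mmp13 (ENSRNOG00000008478), a collagenase gene, had counts of 0, 5 and 28 after PRATA and 39, 15 and 117 after sham. In CPM it stood at 0, 0.398 and 2.21 after PRATA and at 2.69, 2.34 and 11.1 after sham. The groups were separate but nearly met, at PRATA replicate 3 and sham replicate 2. Between the groups the log2 fold change was -2.53 (standard error 1.03) and missed the adjusted threshold (adjusted p = 0.251, edgeR). It ranged from -1.45 without sham replicate 3 to -4.47 without PRATA replicate 3, and was -4.80 within the 4 samples alike in 7SL RNA (adjusted p = 0.171, edgeR).

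The neighbours of these genes in the cluster were measured from a list of the other MMPs, which did not hold Mmp1b. Mmp12, the macrophage elastase gene, was at 0.129, 1.83 and 0.395 CPM after PRATA and at 1.59, 1.56 and 1.42 CPM after sham, so the groups overlapped through PRATA replicate 2. Mmp8, a collagenase gene known from neutrophils, overlapped as well, with 0 to 1.58 CPM after PRATA and 0 to 3.43 CPM after sham. Mmp1, Mmp7, Mmp20 and Mmp27 did not pass the low-count filter and reached at most 0.624 CPM in any sample. At such levels a difference was not detectable in these 4 genes.

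**Figure D2:**
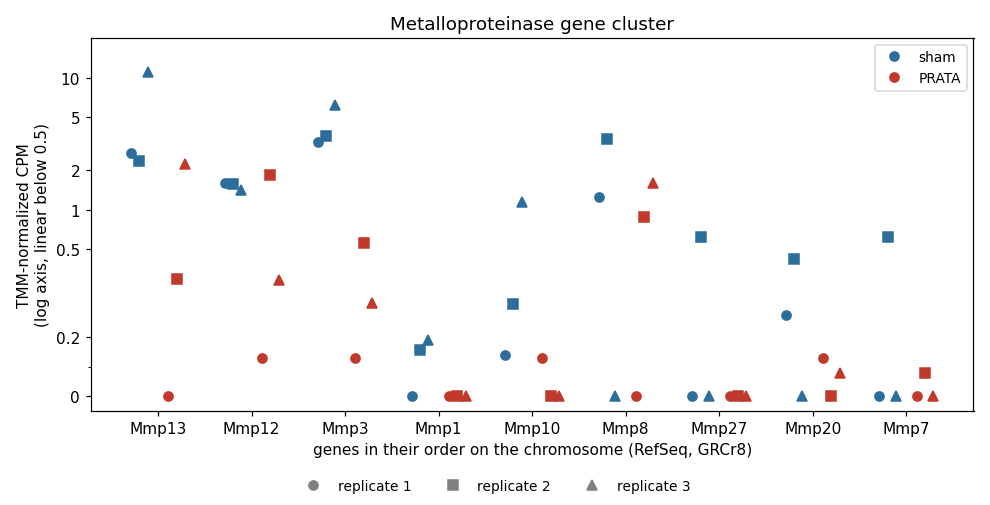
TMM-normalized CPM (log axis, linear below 0.5) of 9 genes in their order within the metalloproteinase cluster, for 3 sham (blue) and 3 PRATA (red) samples. Mmp1b of this cluster is not shown. The sham samples lie above the PRATA samples for Mmp13 and Mmp3 and, by a margin of 1 count, for Mmp10, while those of Mmp12 and Mmp8 overlap and the rest stay under 1 CPM.

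Mmp14 (ENSRNOG00000010947), the membrane-anchored activator of the Mmp2 product, stood at 30.3, 66.7 and 58.9 CPM after PRATA and at 142, 71.3 and 142 CPM after sham. Sham replicate 2 came close to PRATA replicate 2, and the other 2 sham samples were at more than 140 CPM. The means were 52.0 ± 19.1 and 118 ± 40.8 CPM (SD, n = 3 each), which differed by -1.19 on the log2 scale (standard error 0.36; edgeR's adjusted p = 0.178). Over all 14 alternative settings it ranged from -0.94 to -1.56 with an adjusted p of 0.0233 to 0.550. It was under 0.05 with DESeq2 (0.0233), with limma voom (0.0398) and in edgeR without sham replicate 2 (0.0499).

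Mmp9 (ENSRNOG00000017539), the gene of gelatinase B, was at 6.58, 2.39 and 3.40 CPM after PRATA and at 11.0, 4.84 and 14.8 CPM after sham. The groups overlapped, because PRATA replicate 1 exceeded sham replicate 2. The difference was -1.34 on the log2 scale (standard error 0.49; edgeR's adjusted p = 0.225), and it ranged from -0.97 without sham replicate 3 to -1.86 without PRATA replicate 1. In the 4 samples alike in 7SL RNA it was -1.21 (adjusted p = 0.465, edgeR), and Mmp9 was no longer counted.

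Mmp2 (ENSRNOG00000016695), the gene of gelatinase A, had 14.1, 39.8 and 63.3 CPM after PRATA and 77.2, 60.4 and 50.4 CPM after sham. PRATA replicate 3 lay inside the sham range, and PRATA replicate 1 was far below all other samples. The log2 fold change of -0.68 (standard error 0.46) did not pass the test (adjusted p = 0.455, edgeR), and Mmp2 was not among the 5 members counted. In the 4 samples alike in 7SL RNA it was -1.03 (adjusted p = 0.376, edgeR) and was counted. It was -0.31 without PRATA replicate 1 and -1.21 without PRATA replicate 3.

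Timp3 (ENSRNOG00000004303), whose product binds to the matrix and also inhibits the sheddase ADAM17, was the most clearly separated inhibitor. It was at 298, 377 and 374 CPM after PRATA and at 1657, 633 and 1692 CPM after sham. The 3 PRATA samples lay close together, sham replicate 2 stood between them and the other sham samples, and the groups did not overlap. Means were 349 ± 45.0 and 1328 ± 602 CPM (SD, n = 3 each), with a sham to PRATA ratio of 3.80. On the log2 scale PRATA was lower by 1.93 (log2 fold change -1.93, standard error 0.38), with an adjusted p of 0.156 in edgeR, the smallest value in the table and shared with other genes. It was -1.80 within the 4 samples alike in 7SL RNA (adjusted p = 0.206, edgeR). Across the 14 alternative settings it ranged from -1.71 to -2.26, and its adjusted p was under 0.05 with DESeq2 (2.81e-05), with limma voom (0.0315) and in edgeR without sham replicate 2 (0.0260).

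Timp1 (ENSRNOG00000010208), an inhibitor known to be induced with injury and inflammation, was at 79.5, 98.3 and 57.3 CPM after PRATA. In sham replicates 1 and 3 it was at 175 CPM each, but in sham replicate 2 at 59.6 CPM, inside the PRATA range. With all samples the difference was -0.80 on the log2 scale (standard error 0.40) and edgeR gave an adjusted p of 0.322. Without sham replicate 2 it was -1.15 (adjusted p = 0.0444, edgeR). In that setting 721 of the 15438 genes tested had an adjusted p under 0.05 in edgeR, against 0 with all samples. Within the 4 samples alike in 7SL RNA, which include sham replicate 2, the difference of Timp1 was -0.42 (adjusted p = 0.744, edgeR).

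Timp2 (ENSRNOG00000003148), the partner of the Mmp14 product in activating the Mmp2 product, was the member that was higher after PRATA. Its levels were 398, 362 and 401 CPM after PRATA and 307, 379 and 273 CPM after sham, with sham replicate 2 inside the PRATA range. The log2 fold change of 0.28 (standard error 0.20) did not pass the test (adjusted p = 0.476, edgeR). Timp4 (ENSRNOG00000007955), an inhibitor of narrow tissue range, had 2.14 to 3.90 CPM after PRATA and 2.55 to 4.08 CPM after sham. Its groups overlapped almost fully, and the difference was -0.09 on the log2 scale with a standard error of 0.38 and an adjusted p of 0.925 in edgeR.

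**Figure D3:**
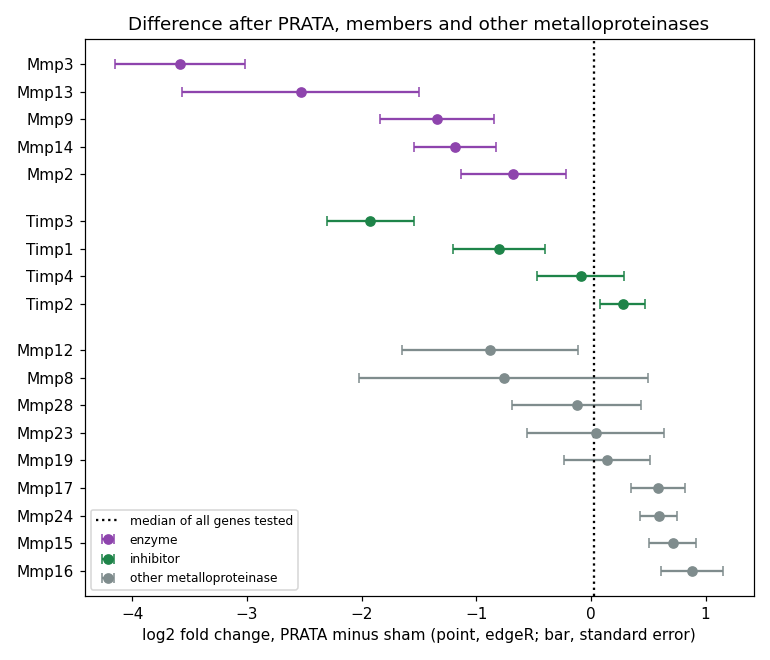
Log2 fold change, PRATA minus sham, from edgeR (points) with its standard error (bars) for the 5 tested enzymes, the 4 inhibitors and 9 other tested metalloproteinases. The dotted line marks the median of all genes tested, 0.02. All 5 enzymes lie to its left, and Mmp15, Mmp16, Mmp17 and Mmp24 lie between 0.58 and 0.88.

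The 6 enzymes summed to 51.2, 110 and 128 CPM after PRATA (replicates 1, 2 and 3) and to 237, 143 and 225 CPM after sham. Summed over the 4 inhibitors it was 778, 842 and 834 CPM after PRATA and 2143, 1075 and 2143 CPM after sham. Both sums were lower in every PRATA sample than in every sham sample, a separation that 11.2% of all single genes tested showed in this direction. Of the 4 inhibitors, Timp3 alone had groups without overlap, and Timp2 was higher after PRATA, so the inhibitor sum does not describe the inhibitors one by one. Enzyme counts per 100 inhibitor counts were 6.58, 13.1 and 15.4 after PRATA and 11.0, 13.3 and 10.5 after sham, so this proportion overlapped between the groups. The make-up of the inhibitors differed, since Timp3 took 38.2% to 44.8% of their counts after PRATA and 58.9% to 79.0% after sham. Timp2 took 43.0% to 51.1% after PRATA and 12.8% to 35.2% after sham.

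Of the 16 other MMPs listed, 14 were in the table and 9 were tested, of which 3 were lower and 6 higher after PRATA (median log2 fold change 0.14). None was past the thresholds on p and fold change in either direction. The groups did not overlap for 4 of them, Mmp15, Mmp16, Mmp17 and Mmp24, all higher after PRATA, beside 11.6% of all genes tested. Mmp24, an enzyme known from neurons, was at 54.3, 57.7 and 65.8 CPM after PRATA and at 36.6, 39.6 and 41.8 CPM after sham (log2 fold change 0.59, standard error 0.16, adjusted p = 0.168, edgeR). Mmp15 was at 89.5, 119 and 97.0 CPM after PRATA and at 62.3, 74.8 and 49.5 CPM after sham (log2 fold change 0.71, standard error 0.20, adjusted p = 0.175, edgeR). Mmp16 and Mmp17, named after their values were seen, had log2 fold changes of 0.88 and 0.58 (edgeR's adjusted p = 0.182 and 0.250). Each of these 4 was higher under all 14 alternative settings, which groups without overlap made nearly certain. Mmp23, of the same list, was at 0.387 to 1.74 CPM after PRATA and 0.850 to 1.40 CPM after sham, with overlapping groups and a log2 fold change of 0.04.

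The ADAM and ADAMTS families are related metalloproteinases that shed surface proteins or cut proteoglycans, and some of them are inhibited by TIMPs. The counts of genes past the thresholds in these and the next lists stand beside 3.23% lower and 1.17% higher over all genes tested. Of 9 ADAM genes, 6 were tested and 1 passed the thresholds downward, Adam12, with 2.58, 3.98 and 5.38 CPM after PRATA and 9.88, 7.34 and 20.8 CPM after sham. The difference was -1.66 on the log2 scale, with a standard error of 0.44 and an adjusted p of 0.168 in edgeR. Of 19 ADAMTS genes, 16 were tested, 8 lower and 8 higher, and 1 passed downward. This was Adamts7, with 20.8, 28.3 and 39.0 CPM after PRATA and 137, 43.9 and 174 CPM after sham (log2 fold change -2.01, standard error 0.47, adjusted p = 0.156, edgeR). As for Timp3 and Mmp14, sham replicate 2 was the sham sample nearest to PRATA.

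Among 14 activators and other regulators of metalloproteinases, all tested, 10 were lower and 4 higher, with a median log2 fold change of -0.33. Among 21 inducers of MMP genes and AP-1 factors, 5 were past the thresholds upward, beside 1.17% of all genes, and 2 downward, beside 3.23%. The AP-1 gene Fos was at 379, 474 and 297 CPM after PRATA and 217, 96.3 and 77.5 CPM after sham, while its relative Fosl1 was at 195, 192 and 140 CPM after PRATA and 522, 220 and 384 CPM after sham. They gave log2 fold changes of 1.56 for Fos and -1.10 for Fosl1 (adjusted p = 0.167 and 0.175, edgeR). Tgfa, which encodes a ligand of the EGF receptor, had a log2 fold change of -1.72, Jund of 1.01 and Atf3 of 1.43 (adjusted p = 0.156, 0.168 and 0.182, edgeR). Fosb and Il1a were past the thresholds upward with groups that overlapped, as they did for Atf3. Of the AP-1 genes Fos, Fosb, Fosl1, Fosl2, Jun, Junb and Jund and the related Atf3, Fosl1 was lower and the others were higher, with log2 fold changes from 0.07 for Fosl2 upward. Their part in the levels of Mmp3, Mmp10 and Mmp13 was not tested.

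Among matrix proteins that MMPs cut, 21 of 22 listed genes were tested, and 20 were lower and 1, Col3a1, higher after PRATA (median log2 fold change -0.79). Past the thresholds, 5 were lower, beside 3.23% of all genes, and 0 higher, beside 1.17%. The 5 were Lamc1, Tnc, Col4a1, Col4a2 and Lama4, which encode laminin chains, tenascin C and chains of basement membrane collagen. The groups overlapped for Col4a1, Col4a2 and Lama4. Tnc was at 313, 336 and 339 CPM after PRATA and at 969, 384 and 1237 CPM after sham (log2 fold change -1.39, standard error 0.39, adjusted p = 0.171, edgeR). Lamc1 had a log2 fold change of -1.17 and Col4a1 of -1.44 (adjusted p = 0.169 and 0.175, edgeR).

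Neurons in such a preparation come with other cells of the ganglion, and in bulk RNA fewer cells of a type and less RNA per cell cannot be told apart. Of 10 fibroblast markers 9 were in the table, all tested, with 7 lower after PRATA, 0 past the thresholds and a summed level of 347 to 2020 CPM after PRATA and 926 to 1874 CPM after sham. The fibroblast sum was highest in PRATA replicate 3 and lowest in PRATA replicate 1. Within the PRATA group Mmp2 and Mmp13, alone among the members, had this order. Timp3 was also lowest in PRATA replicate 1, and nearly level in replicates 2 and 3, at 377 and 374 CPM. In the sham group the fibroblast sum was 1874, 1030 and 926 CPM in replicates 1, 2 and 3. Mmp2 and also Timp4 followed that sham order, whereas Mmp13 did not, at 2.69, 2.34 and 11.1 CPM. All 10 markers of Schwann cells and satellite glia were found, with overlapping sums of 1077 to 2017 CPM after PRATA and 1212 to 1674 CPM after sham. Sox10, a transcription factor gene of that list, was nevertheless at 59.9, 88.4 and 42.0 CPM after PRATA and at 214, 109 and 267 CPM after sham (log2 fold change -1.63, standard error 0.38, adjusted p = 0.156, edgeR). Sums also overlapped for 10 macrophage markers (68.0 to 200 and 46.4 to 104 CPM after PRATA and sham), 7 of 8 endothelial markers (67.4 to 141 and 26.7 to 163 CPM) and 7 mural markers (at most 242 and 267 CPM). The macrophage marker Lyz2 and the endothelial marker Vwf were past the thresholds upward with overlapping groups, at log2 fold changes of 1.14 and 1.47 (edgeR's adjusted p = 0.237 and 0.236). Neutrophil markers summed to at most 11.4 CPM in any sample. All 17 sensory neuron markers were higher after PRATA, with a median log2 fold change of 0.44, overlapping sums and 0 past the thresholds. The part of cell composition in the levels of the family was not tested.

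**Figure D4:**
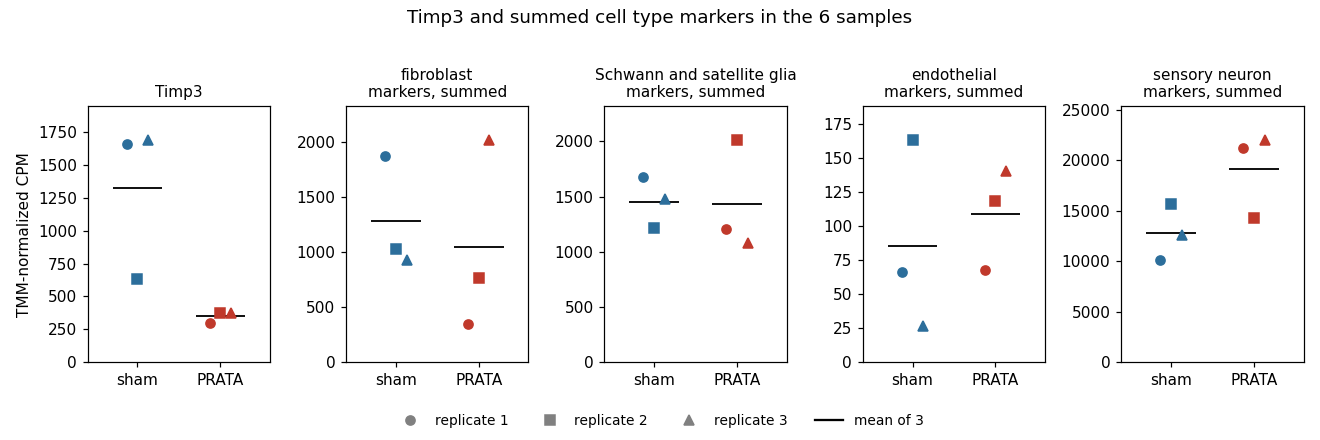
TMM-normalized CPM of Timp3 and of the summed markers of 4 cell types in each sample (vertical axes start at 0, blue sham, red PRATA, line at the mean of 3). Timp3 separates the groups, at 298 to 377 CPM after PRATA and 633 to 1692 CPM after sham, while the sums of all 4 marker lists overlap.

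Genes whose log2 CPM followed Mmp3 most closely over the 6 samples, among 14667 genes with a mean of at least 1 CPM, were Tmem87a, Tgfa, Hspbap1, Hdac7 and Rnf44, with Pearson's r between 0.993 and 0.997. All 5 were lower after PRATA, which follows from their choice by likeness to Mmp3. Their r with Mmp3 was 0.934 to 0.975 after the group means were removed, resting partly on Mmp3 counts of 1, 7 and 4 after PRATA. For Timp1 the closest were Rab33b, Tmem251, Gria4, Cnn2 and Xrn1 (r between 0.992 and 0.996). These are the highest of many correlations over the same 6 libraries and describe likeness only. Within the family, r was 0.93 between Mmp14 and Timp3 and 0.83 with group means removed, and 0.90 between Mmp3 and Timp3 but 0.38 with group means removed. Timp2 ran against Timp1 and Timp3, with r of -0.92 for both.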

How the data were processed

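RNA of DRG neurons was sequenced in 3 PRATA and 3 sham samples. The deposited table holds raw counts of reads per gene made by the authors, without normalization, and all 6 sample columns were used. The submitters' processing notes name STAR 2.7.3a, RSEM and DESeq2 without their roles, whereas the paper's methods name HISAT2, StringTie and Cuffdiff. The counting tool, strand setting and genome build of the table are not given in the sources used here. Reads shared between close paralogs such as Mmp3 and Mmp10 could therefore have been split in an unknown way.

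Counts were filtered with edgeR's filterByExpr (minimum count 10, minimum total 15), scaled by TMM (factors 0.953 to 1.10) and compared by the two-sided quasi-likelihood test over all genes without a covariate, with Benjamini-Hochberg adjustment, using edgeR 4.0.16 under R 4.3.3; limma 3.58.1 and DESeq2 1.42.0 served the alternatives. Figures were drawn in Python 3.11.15 with matplotlib 3.10.9. The fits were tested on simulated counts. The interval of summed counts given for Mmp10 is exact and, like the level of 3 counts, covers counting error only.

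The members and gene lists were chosen with earlier results of these data known. Of 171 list entries, 165 matched a gene name in the table, 1 of them through an older symbol. All members were named, as were up to 5 genes of each pathway list past the thresholds (the 2 with the smallest p where none passed), and the 5 genes most like Mmp3 and most like Timp1. A gene that this rule picks is not reported here. The cluster neighbours, Mmp16, Mmp17, Mmp23, Fosb, Il1a, the remaining AP-1 genes, Col3a1 and the single markers were named after their values were seen. Alternatives were scaling by DESeq2's size factors or by library size only, no low-count filter, DESeq2, limma voom with quality weights, limma-trend (pseudocount 1 CPM), the replicate number as a block, each sample left out, and the 4 samples alike in 7SL RNA. Promoter sequences came from RefSeq (GRCr8).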

Additional observations from a re-analysis of the deposited data

How the results depend on the processing

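The 14 alternatives reuse the same 6 samples, so Mmp3, Mmp13, Mmp14 and Timp3, whose groups did not overlap, could hardly change direction. Over these alternatives, 8 of the 9 tested members kept the direction of their difference in each one. The exception was Timp4, whose log2 fold change turned from -0.09 to 0.047 with limma voom, 0.14 without PRATA replicate 3, 0.06 without sham replicate 1 and 0.30 in the 4 samples alike in 7SL RNA, with -0.25 without PRATA replicate 2 as its lowest value. In those 4 samples the median of the 4 TIMPs was -0.10, against -0.44 in all 6, and 13 genes had an adjusted p under 0.05. With samples left out in turn, the enzyme median ranged from -1.86 to -1.03 and the TIMP median from -0.63 to -0.24. The log2 fold change of Mmp3 was -1.98 with limma-trend, where the pseudocount of 1 shrinks low levels.

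At the report's thresholds (p under 0.05 before adjustment, log2 fold change beyond 1 in either direction) 482 genes were lower and 175 higher. The lower count was 1159 without a filter and 253 with limma-trend. The higher count was 84 with limma-trend, 340 with limma voom and 421 in the 4 samples alike in 7SL RNA, and with samples left out it ranged from 101 to 361, beside 383 to 673 lower. Genes at an adjusted p under 0.05 numbered 0 in edgeR, 744 with DESeq2, 1173 with limma voom and 0 to 721 with samples left out, the 721 without sham replicate 2. The cause of these shifts was not tested.

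The replicate numbers do not pair the samples by any label, and deviations of same-numbered samples correlated across genes at -0.35, -0.04 and -0.35. With the replicate block, 372 genes were lower and 147 higher at the same thresholds, the same 5 members were counted, and the log2 fold change of Timp3 was -1.81 (adjusted p = 0.461, edgeR). Depth limits Mmp10 and the PRATA level of Mmp3 to a few counts per sample.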
